A study of Procambarus clarkii with 12 samples.

Results

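The clusters set apart at 5 mg/L cadmium are gene clusters of the crayfish hepatopancreas whose 3 libraries at 5 mg/L all lay above, or all below, the other 9 libraries. A gene cluster is a group of assembled transcript sequences that the authors treated as 1 gene. Levels are in CPM, the estimated count of a cluster per 1000000 counts of its library. Members had a mean of 5 to under 1000 CPM over the 12 libraries and a mean log2(CPM + 1) at 5 mg/L that differed from that of the other 9 libraries by at least 1. Clusters in which the 3 control libraries, the 3 at 2 mg/L or the 3 at 10 mg/L also all lay above or below the other 9 were left out. The rule found 31 clusters higher and 25 lower at 5 mg/L, 0.258% and 0.208% of the 12004 clusters in that range of means, out of 176325 listed. These clusters were chosen by their measured CPM in the 12 libraries, including those at 5 mg/L, so their separation at 5 mg/L is described here and not tested.

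The series covers RNA-seq of the hepatopancreas of male red swamp crayfish (*Procambarus clarkii*), and its title names oxidative stress, histopathology and transcript changes under cadmium. Animals were exposed for 72 h to 2, 5 or 10 mg/L cadmium or to none (0 mg/L, the controls), with 3 libraries in each of the 4 groups. The labels name no strain, age or cadmium salt. Whether a library holds 1 animal or several is not labelled, and p-values here measure only the spread between the deposited libraries.

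The hepatopancreas of crustaceans secretes digestive enzymes, absorbs nutrients and stores lipid and glycogen, and it is a main site where metals taken up from water or food are bound and held. Cadmium is a metal with no known role in crustacean metabolism. It binds the thiol groups of proteins and glutathione, and in many animals it raises metallothioneins, small proteins rich in cysteine that bind metals.

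The deposited files pair no cluster with a gene name or sequence, and 0 of the identifiers were found in RefSeq's gene table for the species. The function of a member, the pathways it belongs to and the tissue's own marker genes therefore could not be read here, and members are described by their levels, by the length their values imply and by their identifiers. In bulk tissue, fewer cells of a type and less RNA per cell cannot be told apart.

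Library totals were 19011151 to 21653867 estimated counts at 5 mg/L, against 19490723 to 21160462 in the controls, 15835744 to 17480371 at 2 mg/L and 16083833 to 16880989 at 10 mg/L. The libraries differed widely among themselves. The highest correlation of log2(CPM + 1) between any 2 libraries was r = 0.72 across the 12004 clusters, which are not independent. Replicate 3 at 10 mg/L had a mean r of 0.56 with the other libraries at its own dose, against 0.67 with the controls. Without it, the rule above set apart 206 control clusters, 175 clusters for 2 mg/L, 58 for 5 mg/L and 1457 for 10 mg/L, where only 2 libraries then had to stand apart. This and other values without it were computed after the data were seen.

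Fewer clusters were set apart at 5 mg/L than in any other group by the same rule, a difference in counts that was not tested. The 56 members compare with 192 clusters set apart in the controls (1.6% of the 12004), 174 at 2 mg/L (1.45%) and 213 at 10 mg/L (1.77%). Before the other conditions, 52 clusters lay higher (0.433%) and 47 lower (0.392%) in all 3 libraries at 5 mg/L. The minimum difference then left 33 and 26, and 2 higher clusters and 1 lower cluster were left out because another group also stood apart. At the edge of the rule, the smallest differences of members were 1.26 and -1.15 on the log2(CPM + 1) scale, and the nearest excluded clusters had 0.89 and -0.97. The member with the lowest mean had 5.87 CPM among the higher and 5.28 CPM among the lower clusters, next to excluded clusters of 4.72 and 4.75 CPM. No cluster of 1000 CPM or more met the remaining conditions. The counts depended on single libraries: without 1 of those at 5 mg/L, when only 2 had to stand apart, 85 to 96 higher and 73 to 106 lower clusters met the rule, and without replicate 1 at 10 mg/L 49 lower clusters did.

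Together the 31 higher members made up 2454 to 2852 CPM in the 3 libraries at 5 mg/L, against 135 to 184 CPM in the controls, 529 to 953 CPM at 2 mg/L and 190 to 534 CPM at 10 mg/L. The 25 lower members summed to 128 to 172 CPM at 5 mg/L, against 770 to 883 CPM in the controls, 781 to 1069 CPM at 2 mg/L and 682 to 1034 CPM at 10 mg/L. Without replicate 3 at 10 mg/L the higher members summed to 190 to 316 CPM there, and the range of the lower members did not change. The sums at 5 mg/L did not overlap any other group in either direction, which the rule fixes. Outside 5 mg/L the lower members' sums lay in overlapping ranges in the 3 groups. Those of the higher members exceeded every control sum in all 9 libraries with cadmium in CPM, but the rule fixes this for the 3 at 5 mg/L. When scaled by TMM or by DESeq2 size factors they did so in 8 of the 9. The lowest sum at 10 mg/L was then 175 and 181, against a highest control sum of 202 and 197. Outside 5 mg/L single members weighed heavily in these sums. Cluster-27942.68097 alone held 419 CPM in replicate 2 at 2 mg/L and 335 CPM in replicate 3 at 10 mg/L, but 1.46 CPM in replicate 3 at 2 mg/L.

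**Figure D1:**
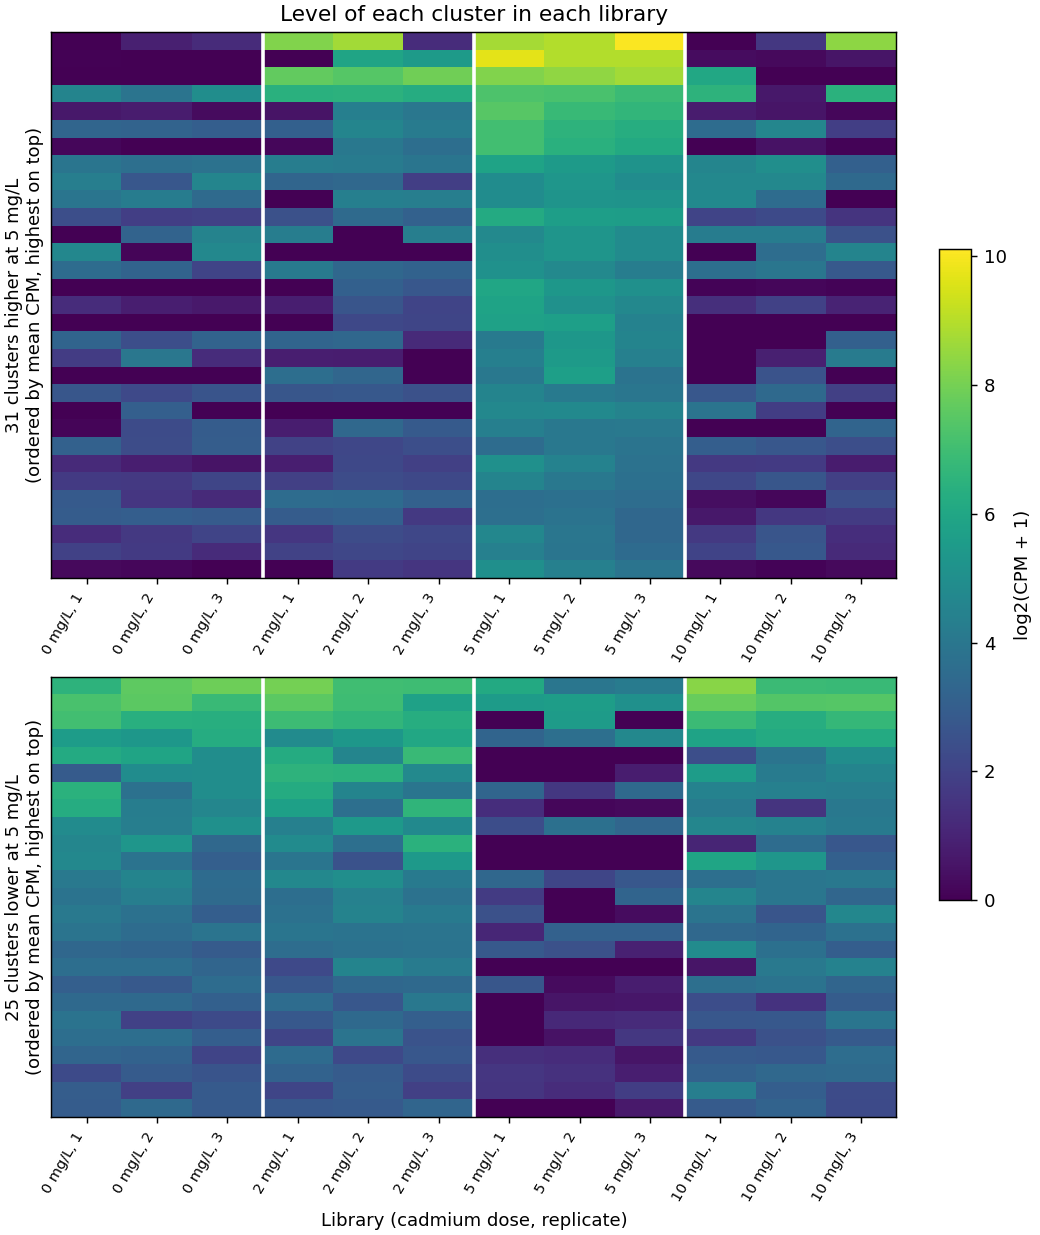
Level of each of the 31 higher (top) and 25 lower (bottom) clusters in each of the 12 libraries, as log2(CPM + 1) in colour, with libraries in dose order and clusters ordered by mean CPM. The columns at 5 mg/L stand out in both panels, and several higher clusters were also at high levels in single libraries at 2 and 10 mg/L.

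The differences of the higher members between 5 mg/L and the other 9 libraries ran from 1.26 to 7.77 with a median of 3.07 on the log2(CPM + 1) scale. Those of the lower members ran from -5.11 to -1.15 with a median of -2.18. Differences of at least 2 in size were seen in 21 higher and 15 lower members, and of at least 4 in 7 and 4. Most members were of modest level, with a median mean of 11.1 CPM for the higher and 12.2 CPM for the lower ones. Only 3 higher and 2 lower members reached 100 CPM, and the 3 with the highest level at 5 mg/L supplied 58.9% of the higher sum and 59.6% of the lower sum there.

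The separation was narrow for many members. The gap between the nearest library at 5 mg/L and the nearest of the other 9 had a median of 0.62 for the higher and 0.41 for the lower members on the log2(CPM + 1) scale. It was under 0.5 in 14 higher and 14 lower members and at least 1 in 11 and 5. For 17 of the 31 higher members the nearest other library was one at 2 mg/L, in 13 of them replicate 2 at 2 mg/L, against 11 with a 10 mg/L library and 3 with a control. By group means, the group nearest to 5 mg/L was 2 mg/L for 18 higher members, 10 mg/L for 7 and the controls for 6. By group means the lower members had 10 mg/L nearest for 10, the controls for 10 and 2 mg/L for 5. These counts have no share over all clusters beside them, so no lean is read from them. The 17 higher members nearest to a library at 2 mg/L include 6, described below, that followed one another outside 5 mg/L.

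The most abundant higher member was Cluster-27942.68097, with an implied length of 1513 bases. Its level was 427, 485 and 1060 CPM at 5 mg/L, against 0, 0.873 and 1.40 CPM in the controls, 289, 419 and 1.46 CPM at 2 mg/L and 0, 2.13 and 335 CPM at 10 mg/L. It was thus high in all 3 libraries at 5 mg/L, but also in 2 libraries at 2 mg/L and 1 at 10 mg/L, and near 0 in the remaining 6. Its mean log2(CPM + 1) at 5 mg/L exceeded that of the other 9 by 5.86, yet its lowest library at 5 mg/L was only 0.03 above replicate 2 at 2 mg/L on the same scale.

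Some members were at a high level in some libraries and at 0 in others of the same group. The higher member with the next highest mean after those named had 287, 338 and 416 CPM at 5 mg/L, against 0, 0 and 0 CPM in the controls, 201, 171 and 240 CPM at 2 mg/L and 64.9, 0 and 0 CPM at 10 mg/L, with an implied length of 4686 bases. It was present in every library at 2 and 5 mg/L and absent from the counts of 5 of the other 6. Of the 31 higher members, 15 had 0 counts in at least 1 library, in each case outside 5 mg/L. Of the 25 lower members, 12 had 0 counts in at least 1 library, in each case at 5 mg/L. These are the sides on which the rule asks for low values, so the counts are a description only. Among the higher members, 4 were at 0 in all 3 controls, 2 in all 3 libraries at 2 mg/L and 1 in all 3 at 10 mg/L. In 10 higher members a library outside 5 mg/L had 0 counts while another exceeded 50% of the lowest level at 5 mg/L.

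Cluster-27942.79942 had the largest difference of the higher members, 7.77 on the log2(CPM + 1) scale. It stood at 812, 485 and 485 CPM at 5 mg/L, against 0.0473, 0 and 0 CPM in the controls, 0, 59.1 and 43.9 CPM at 2 mg/L and 0.252, 0.187 and 0.475 CPM at 10 mg/L. It was abundant in each library at 5 mg/L, present in 2 libraries at 2 mg/L and at or near 0 in the other 7. Its 3 control libraries together held 1 count, so no fold against them is given. By group mean CPM its level at 5 mg/L was 17.3 times that at 2 mg/L (11.5 times without replicate 1 and 27.0 times without replicate 2 at 2 mg/L) and 1948 times that at 10 mg/L (1590 to 2701 times with each library left out). The gap to the nearest other library, 3.01 on the log2(CPM + 1) scale, was the widest among the higher members, and its implied length was 1018 bases.

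**Figure D2:**
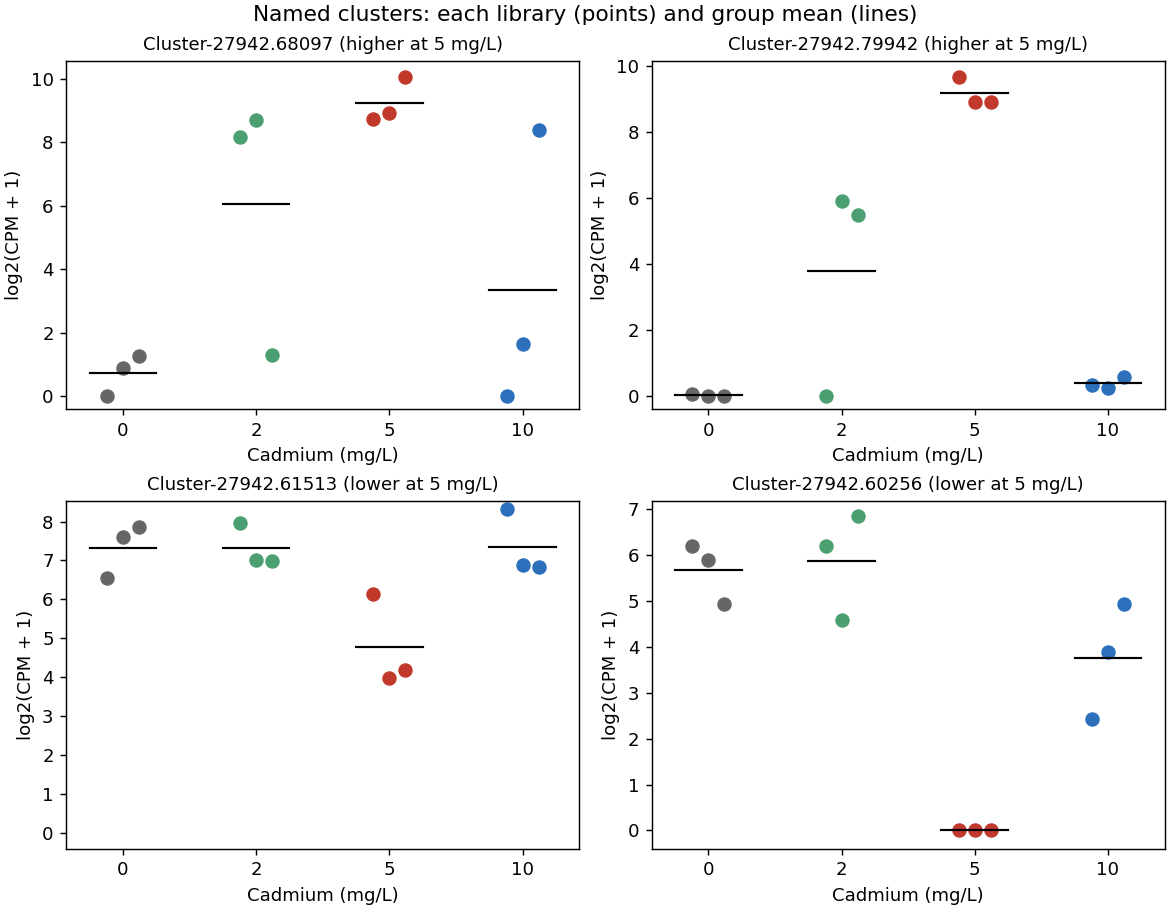
Level of 4 clusters as log2(CPM + 1) against the cadmium dose in mg/L, with a point per library and a line at each group's mean. The points at 5 mg/L lie above all others in the top row and below all others in the bottom row, with the narrowest gap, 0.03, for Cluster-27942.68097 and all 3 points at 0 for Cluster-27942.60256.

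Over the 9 libraries outside 5 mg/L, 5 further higher members followed Cluster-27942.79942 at r = 0.986 to 0.998. The rule used these 9 libraries by their order against 5 mg/L, as groups, in the mean CPM and in the minimum difference. The 5 further members had implied lengths of only 26.7 to 114 bases, and a pair among them had consecutive identifiers. Whether they are separate genes could not be read from these files. The 9 points share their libraries and depth, and the r is a description that rests on the 2 libraries with more than traces. In replicates 2 and 3 at 2 mg/L the 6 clusters had 2.31 to 59.1 and 1.95 to 43.9 CPM, while replicate 1 at 2 mg/L and every control and 10 mg/L library held at most 0.712 CPM. At 5 mg/L they had 13.7 to 812 CPM. Summed over the 6, the level was 1266, 790 and 720 CPM at 5 mg/L, against 0.954, 0.828 and 0.233 CPM in the controls, 0.554, 107 and 81.5 CPM at 2 mg/L and 1.21, 1.27 and 0.894 CPM at 10 mg/L.

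The 6 clusters, alike by choice in replicates 2 and 3 at 2 mg/L, differed in how far they stood higher at 5 mg/L. Their mean at 5 mg/L was 6.88 to 12.1 times their mean in replicates 2 and 3 at 2 mg/L. The ratio of replicate 1 to replicate 3 at 5 mg/L was 1.67 to 2.57, and that of replicate 2 to replicate 3 at 2 mg/L was 1.09 to 1.35. In 9 of the 31 higher members, or 29.0%, replicates 2 and 3 at 2 mg/L were the next libraries below those at 5 mg/L, an order that 2.62% of all clusters in the range had among the 9 libraries. The 9 hold all 6 of these clusters, chosen for following one another in those libraries, and only 3 of the other 25. The other 25 higher members had r of -0.57 to 0.85 with Cluster-27942.79942.

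**Figure D3:**
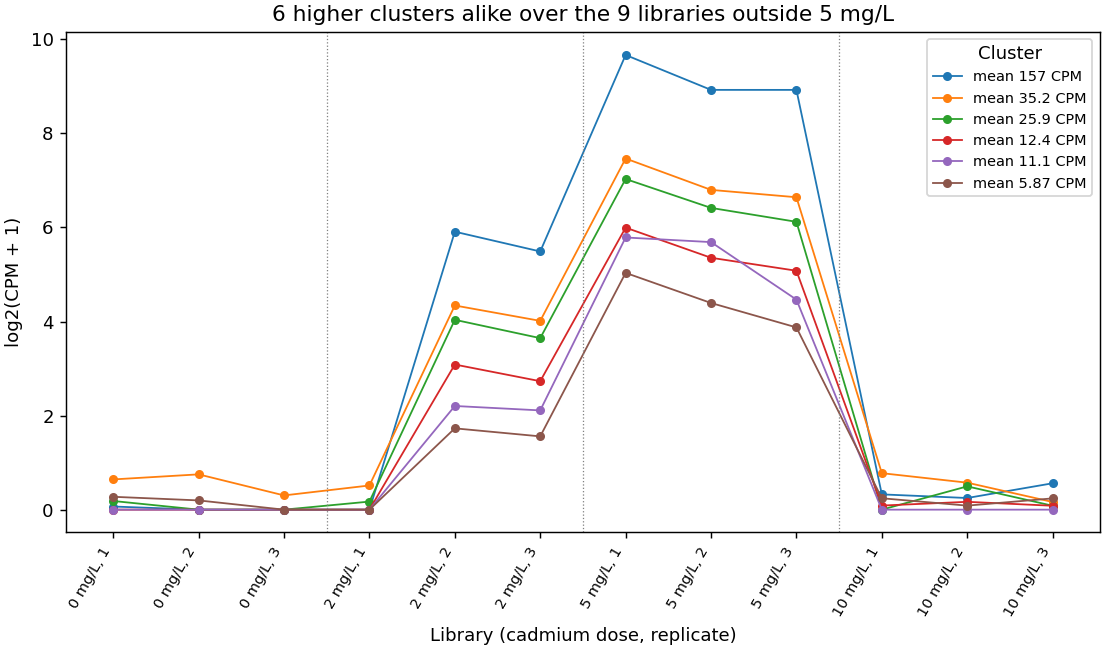
Level of the 6 higher clusters with r of at least 0.9 over the 9 libraries outside 5 mg/L, as log2(CPM + 1) in each library in dose order, 1 line per cluster and labelled by mean CPM. All 6 lines are near 0 in the controls, in replicate 1 at 2 mg/L and at 10 mg/L, higher in replicates 2 and 3 at 2 mg/L and highest at 5 mg/L, where they span 13.7 to 812 CPM.

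The same pattern over all 12 libraries was looked for among the 32498 clusters of at least 1 CPM, and 27 had r of at least 0.9 with Cluster-27942.79942, itself included. Of these, 9 were members, 16 had a mean of 1 to under 5 CPM, 1 was left out because the controls also stood apart, and 1 was above the upper limit of the range. The 12 libraries include those at 5 mg/L that the rule used, so the number of members found is a description only. The cluster above the limit was the most abundant, with a mean of 1285 CPM and r = 0.957. It had 3867, 3810 and 1945 CPM at 5 mg/L, against 3.10, 1.40 and 7.37 CPM in the controls, 2.03, 3793 and 1976 CPM at 2 mg/L and 2.29, 2.36 and 6.26 CPM at 10 mg/L. Its levels in replicates 2 and 3 at 2 mg/L lay within the span of those at 5 mg/L, while replicate 1 at 2 mg/L and every control and 10 mg/L library held at most 7.37 CPM.

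Within 5 mg/L the higher members did not vary alike. Replicate 1 was the highest of the 3 libraries in 18 members, replicate 2 in 11 and replicate 3 in 2, and replicate 3 was the lowest in 22. In 17 members replicate 1 was highest and replicate 3 lowest, an order found in 11.0% of all clusters in the range and in 3 of the 25 lower members. This order was noticed in the data and is described only. The 17 summed to 1102 to 1893 CPM at 5 mg/L, against 58.1 to 76.8 CPM in the controls, 147 to 283 CPM at 2 mg/L and 107 to 159 CPM at 10 mg/L. The other 14 summed to 959 to 1727 CPM at 5 mg/L, against 76.8 to 113 CPM in the controls, 304 to 670 CPM at 2 mg/L and 83.2 to 417 CPM at 10 mg/L.

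The 17 and the 14 differed in implied length, which did not enter the rule, and in further descriptions of the same CPM values that the rule used. Of the 17, 14 had an implied length under 150 bases, against 0 of the other 14. Their median pairwise correlation over the 9 libraries outside 5 mg/L was r = 0.55, against -0.11 among the other 14, a description over libraries that the clusters share. In 12 of the 17 every library held a count, against 4 of the other 14. Replicate 2 was the highest library at 2 mg/L in 15 of the 17 and in 6 of the other 14, and replicate 2 at 10 mg/L was the highest of its group in 12 and in 1. The 17 hold all 6 clusters alike to Cluster-27942.79942, chosen for following one another over these 9 libraries, each highest at 2 mg/L in replicate 2. They enter the r of 0.55 and the 15 by that choice. These counts by library have no share over all clusters beside them, so nothing is read from them. Whether the length or the make-up of single libraries had a part in these levels was not tested.

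The implied length is the length at which a cluster's deposited count and FPKM (fragments scaled by sequence length and library depth) agree. It may be an effective length, which some counters take as the full length less about a fragment, so that a very small value need not be the whole sequence. Higher members had a median of 290 bases with quartiles of 73.2 and 1744 bases, against 1828 bases with quartiles of 853 and 3130 bases over all clusters in the range. Lower members had a median of 2370 bases with quartiles of 1050 and 3062 bases. Lengths under 150 bases were implied for 14 of 31 higher members (45.2%), 4 of 25 lower members and 6.59% of all clusters in the range. The most extreme member, of 6.43 bases, had 153, 147 and 117 CPM at 5 mg/L, against 22.6, 14.0 and 30.1 CPM in the controls, 84.8, 89.6 and 75.6 CPM at 2 mg/L and 91.0, 0.563 and 87.1 CPM at 10 mg/L.

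**Figure D4:**
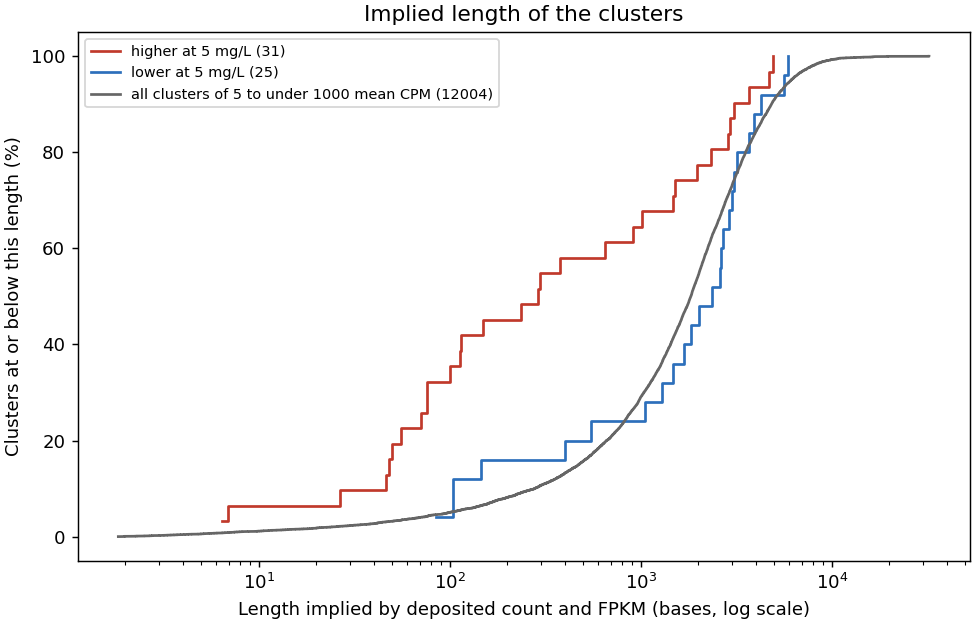
Percentage of clusters at or below each implied length, in bases on a log axis, for the 31 higher members, the 25 lower members and all 12004 clusters of 5 to under 1000 mean CPM. The curve of the higher members lies to the left, with 45.2% under 150 bases, against 6.59% over all clusters in the range. The curve of the lower members runs nearer to that of all clusters but also lies above it at 150 bases.

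The most abundant lower member was Cluster-27942.61513, with an implied length of 1287 bases. Its level was 68.9, 14.8 and 17.3 CPM at 5 mg/L, against 92.2, 192 and 231 CPM in the controls, 250, 128 and 125 CPM at 2 mg/L and 318, 116 and 113 CPM at 10 mg/L. All 12 libraries held it, and the 3 at 5 mg/L were the lowest, with replicate 1 closest to the other groups. By group mean CPM its level at 5 mg/L was 5.10-fold lower than in the controls, 4.98-fold lower than at 2 mg/L and 5.42-fold lower than at 10 mg/L. Replicate 1 at 5 mg/L set the size of these folds, which were 10.7, 10.4 and 11.4 without it, and the fold against 10 mg/L was 3.40 without replicate 1 at 10 mg/L. The difference was -2.56 on the log2(CPM + 1) scale and -3.24 without replicate 1 at 5 mg/L. The means of the 3 other groups were 172, 168 and 182 CPM in the controls, at 2 mg/L and at 10 mg/L, within the spread of single libraries.

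Cluster-27942.60256 had the largest difference of the lower members, -5.11 on the log2(CPM + 1) scale. It had 0 counts in all 3 libraries at 5 mg/L, against 72.1, 58.8 and 29.5 CPM in the controls, 72.9, 23.2 and 114 CPM at 2 mg/L and 4.42, 13.8 and 29.8 CPM at 10 mg/L. Every library outside 5 mg/L held it, with the lowest level at 10 mg/L. Set against a floor of 3 counts over the 3 libraries at 5 mg/L, its level there was at least 1097-fold lower than in the controls, at least 1437-fold lower than at 2 mg/L and at least 328-fold lower than at 10 mg/L. With each library of the compared groups left out, the limits were 711 to 1343, 931 to 1917 and 187 to 447, the lowest against 10 mg/L without replicate 3 at that dose. The floor covers counting error only.

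The lower member most like it, with r = 0.92 over the 9 libraries outside 5 mg/L, also had 0 counts in all 3 libraries at 5 mg/L. It had 24.0, 38.2 and 9.68 CPM in the controls, 28.4, 11.7 and 87.6 CPM at 2 mg/L and 1.06, 11.0 and 5.63 CPM at 10 mg/L. The implied lengths of the pair were 105 and 104 bases, and outside 5 mg/L both were highest in replicate 3 at 2 mg/L and lowest in replicate 1 at 10 mg/L. In all, 4 lower members were at 0 in each library at 5 mg/L, with means of 12.6 to 46.5 CPM over the other 9 and differences of -5.11 to -3.41.

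Near 0 was not the same as low in every library. The third most abundant lower member, of 2908 bases, had 0, 45.4 and 0 CPM at 5 mg/L, against 132, 81.4 and 80.6 CPM in the controls, 122, 99.6 and 77.6 CPM at 2 mg/L and 118, 76.8 and 104 CPM at 10 mg/L. Replicate 2 at 5 mg/L thus held it at a level below, but of the same order as, the other groups. The median coefficient of variation of the lower members within 5 mg/L was 86.8%, over the 21 with a mean above 0 there, against 35.5% in the controls, 43.5% at 2 mg/L and 46.0% at 10 mg/L. Among higher members it was 28.8% within 5 mg/L, against 47.2% in the controls, 58.7% at 2 mg/L and 67.4% at 10 mg/L, over the 27, 29 and 30 members with a mean above 0 in these 3 groups. Over all clusters in the range the values were 40.1% at 5 mg/L, 34.5% in the controls, 33.8% at 2 mg/L and 48.4% at 10 mg/L. Without replicate 3 the values at 10 mg/L were 31.8% for the lower members, 49.9% for the higher members and 30.8% over all clusters in the range. Since the rule picked low values at 5 mg/L for the lower and high ones for the higher members, nothing is read from the spread at 5 mg/L.

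A pair of members with consecutive identifiers, 1 higher and 1 lower, had nearly the same implied length, 3089 and 3062 bases. The higher one had 16.6, 39.8 and 22.6 CPM at 5 mg/L, against 8.58, 4.36 and 8.23 CPM in the controls, 8.49, 9.27 and 1.30 CPM at 2 mg/L and 0, 0 and 7.55 CPM at 10 mg/L. The lower one had 0 CPM in all 3 libraries at 5 mg/L, against 25.1, 13.5 and 7.22 CPM in the controls, 14.4, 4.79 and 42.5 CPM at 2 mg/L and 60.5, 38.3 and 7.66 CPM at 10 mg/L. Their sum was 16.6 to 39.8 CPM at 5 mg/L, against 15.5 to 33.7 CPM in the controls, 14.1 to 43.8 CPM at 2 mg/L and 15.2 to 60.5 CPM at 10 mg/L. The summed level overlapped in all 4 groups and differed by -0.05 on the log2(CPM + 1) scale, against 2.48 and -4.21 for the single clusters. Higher members also had consecutive identifiers among themselves, in a pair of 47.9 and 46.3 bases and a pair of 235 and 55.3 bases by implied length. What the sequences of any of these pairs share could not be read from these files.

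**Figure D5:**
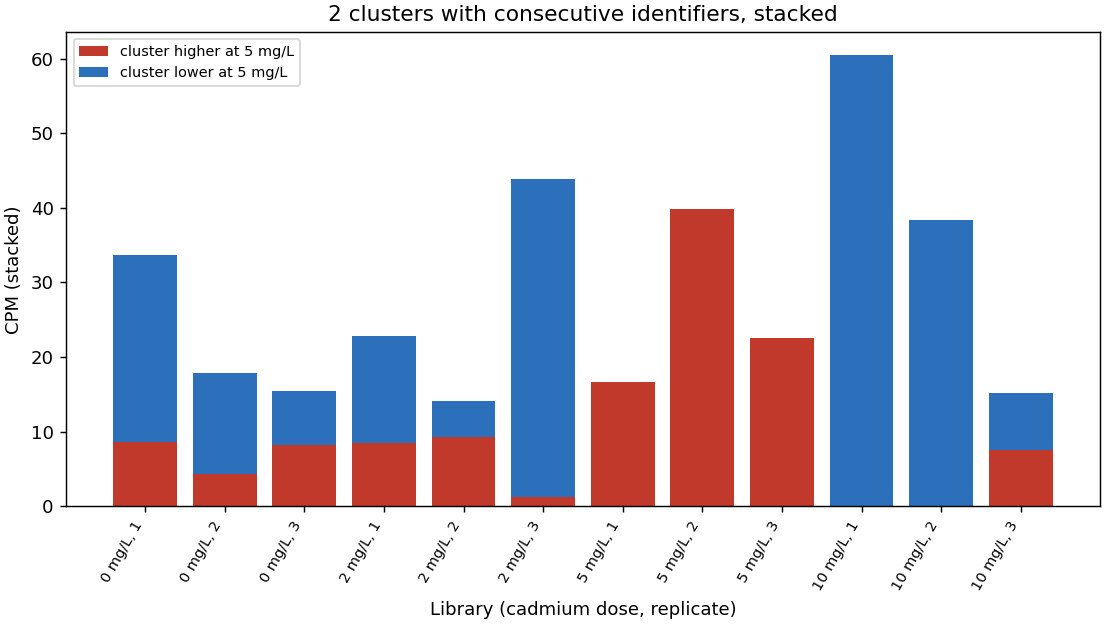
Level in CPM of 2 members with consecutive identifiers, stacked, in each library in dose order, with the higher member in red and the lower member in blue. At 5 mg/L the bars are all red, at 10 mg/L replicates 1 and 2 are all blue, and the total at 5 mg/L, 16.6 to 39.8 CPM, lies within the span of the other groups.

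The counts of members were often not whole numbers, as when a counter divides reads among similar sequences. As deposited, 22.2% of the nonzero counts of the higher members and 10.5% of those of the lower members were whole, against 30.1% over all clusters in the range. Members that share reads with a similar cluster are therefore uncertain. When each member was summed with the clusters numbered directly before and after it, 17 of 30 higher and 15 of 25 lower members with such neighbours were still set apart. In the deposited FPKM values the 3 libraries at 5 mg/L also lay above the other 9 in 29 of the 31 higher members and below them in all 25 lower members. With the whole rule applied to FPKM, 27 of the 31 and 22 of the 25 were members.

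The comparisons between doses other than 5 mg/L are not free of the rule or of the level at 5 mg/L. The rule left out clusters in which another group stood apart, 17 of the 31 higher members had a mean under 5 CPM in the 9 libraries outside 5 mg/L, and the fit took its spread from all 12 libraries. A count filter on only the 6 libraries compared kept 23 of the 31 higher members at 2 mg/L against the controls, and 24 at 10 mg/L against either group. It kept all 25 lower members in each, and all 25 had a mean of at least 5 CPM outside 5 mg/L. The counts and medians of higher members that follow are therefore descriptions. Backgrounds at an adjusted p are over all clusters tested, of any level, and so are not matched to the members' levels. The other backgrounds are over clusters that reached the same range of means in any way. All 56 members were among the 57151 clusters tested with edgeR's quasi-likelihood test and Benjamini-Hochberg adjustment. At an adjusted p under 0.05 it called 0 members at 2 mg/L against the controls (background 0.00875% of clusters), 0 at 10 mg/L against the controls (0.007%) and 0 at 10 mg/L against 2 mg/L (0.0122%). The smallest adjusted p among members was 0.699, 0.371 and 0.372 in these comparisons. Limma-voom also called 0 members in each (backgrounds 0.00875%, 0.0% and 0.00525%), and DESeq2 called 9 (2.27%), 3 (5.75%) and 8 (5.13%). Calls also appeared in edgeR without replicate 1 at 2 mg/L, with 2 members in the first comparison (0.019% of clusters). Without replicate 1 at 10 mg/L there was 1 call in the first (0.00903%) and 1 in the last (0.0181%). Without replicate 3 at 10 mg/L there was 1 in the second and 2 in the last, where 247 (0.357%) and 159 (0.23%) of 69180 clusters were called in all.

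At an unadjusted p under 0.05, 12 of the 31 higher members were higher and 3 lower at 2 mg/L than in the controls, or 38.7% and 9.68%. The background in the same range of means was 3.45% higher and 4.2% lower, but 8 of the 31 passed the count filter only with libraries outside this comparison. None of these passed the adjustment, and the number higher was 7 to 13 with each library left out. By limma-voom only 3 were higher and 1 lower (background 4.66% and 4.84%), and with only the 6 libraries compared 6 of the 23 higher members tested were higher and 0 lower (5.1% and 5%). DESeq2 gave 11 and 4 (6.19% and 6.08%). The 12 include all 6 clusters alike to Cluster-27942.79942, which followed one another over these very libraries and do not count as separate observations. At 10 mg/L against the controls 3 higher members were higher and 1 lower (background 8.71% and 6.64%), while limma-voom gave 0 and 3 (8.18% and 9.86%) and the 6 libraries compared gave 0 and 1 of 24 (6.99% and 4.79%). At 10 mg/L against 2 mg/L 3 were higher and 8 lower (7.7% and 6.36%), the same 6 clusters among the 8. Limma-voom gave 1 and 5 there (6.62% and 9.19%), and the 6 libraries compared gave 1 and 2 of 24 (5.44% and 4.75%). Without replicate 3 at 10 mg/L the counts were 3 and 4 against the controls (9.79% and 10.9%) and 3 and 11 against 2 mg/L (8.84% and 10.7%). Of the 25 lower members, 0 passed an unadjusted p of 0.05 at 2 mg/L or at 10 mg/L against the controls, and 1 was lower at 10 mg/L than at 2 mg/L. By limma-voom 1 was higher at 2 mg/L and 3 were lower at 10 mg/L than in the controls, and 4 were lower at 10 mg/L than at 2 mg/L, against the limma-voom backgrounds above.

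By size alone, the higher members had a median difference of 0.61 on the log2(CPM + 1) scale at 2 mg/L against the controls, with 23 of 31 above 0, beside a median of 0.10 and 57.2% above 0 over all clusters in the range. At 10 mg/L against the controls the median was 0.18 with 20 of 31 above 0, beside 0.05 and 52.6%. At 10 mg/L against 2 mg/L it was -0.60 with 9 of 31 above 0, beside -0.03 and 48.5%. Lower members had medians of 0.10, 0.04 and -0.17 in the same 3 comparisons, with 17, 14 and 12 of 25 above 0. Without replicate 3 at 10 mg/L the higher members had medians of 0.26 against the controls, with 23 above 0, and -0.20 against 2 mg/L, with 14 above 0, beside 0.14 and 0.07 over all clusters in the range. The lower members had -0.02 and -0.33, with 11 and 10 above 0. The comparisons share their control or 2 mg/L libraries.

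Members whose libraries separated these groups completely were counted beside the share over all clusters in the range, and the counts are a description only. At 2 mg/L against the controls, 6 higher members lay wholly above and 2 wholly below (background 11.8% and 7.01% of clusters), which is 19.4% and 6.45% of the 31. At 10 mg/L against the controls 2 lay above and 1 below (8.71% and 10.8%), and at 10 mg/L against 2 mg/L 2 lay above and 3 below (7.14% and 13.0%). Of the lower members, 1, 1 and 0 lay wholly above and 0, 3 and 3 wholly below in the same order of comparisons. Without replicate 3 at 10 mg/L, 11 higher members lay above and 5 below the controls (background 26.2% and 16.1%) and 4 above and 6 below 2 mg/L (23% and 18.2%). Of the lower members, 5 lay above and 5 below the controls and 2 above and 6 below 2 mg/L. An exact permutation test of 3 libraries against 3 cannot give a two-sided p below 0.1.

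For the contrasts that the rule used, counts are given and nothing is read from them. edgeR called 0 members at 5 mg/L against the controls (background 0.0%; smallest adjusted p 0.0559), with 20 higher members higher (background 2.85%) and 19 lower members lower (3.83%) at an unadjusted p under 0.05. It called 0 against 2 mg/L (0.0105%), with 19 higher (3.35%) and 20 lower (2.66%) at an unadjusted p under 0.05. It called 1 against 10 mg/L (0.0105%), with 18 higher (3.75%) and 19 lower (5.77%) at an unadjusted p under 0.05. DESeq2 called 32 (background 1.76%), 26 (2.0%) and 31 members (3.27%) in the same comparisons and limma-voom 1 (0.007%), 1 (0.0175%) and 1 (0.007%). The 1 member called was Cluster-27942.63967, named after its values were seen. It had 71.7, 49.6 and 48.8 CPM at 5 mg/L, against 4.35, 2.63 and 2.82 CPM in the controls, 4.61, 10.2 and 7.73 CPM at 2 mg/L and 3.23, 3.82 and 1.86 CPM at 10 mg/L. Its log2 fold change against 10 mg/L was 4.30 ± 0.45 (approximate SE, n = 3 libraries each; edgeR adjusted p = 0.0303). This SE is the fold change divided by the square root of the test's F statistic. Its spread was fitted to all 12 libraries, not to the libraries compared alone. The adjusted p was 0.0250 to 0.171 with each library left out, under 0.05 only without replicate 1 at 2 mg/L and without replicate 3 at 10 mg/L. All 3 of its libraries at 5 mg/L were well above the other 9, and its implied length was 113 bases.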

How the data were processed

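Per the labels, hepatopancreas was flash frozen and total RNA was extracted with Tri Reagent. The deposited files list the same clusters in each library. They give estimated counts per cluster, not normalized, and FPKM, which the authors scaled for length and depth, per the file headers. The build and the tools for assembly, alignment and counting were not given in the sources used here.

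CPM was computed from estimated counts and the file total. Counts, rounded, were filtered with filterByExpr (minimum count 10, minimum total 15), scaled by TMM and fitted with 1 coefficient per group to all 12 libraries in edgeR 4.0.16 (glmQLFit, glmQLFTest), which kept 57151 clusters with 98.6% of counts (common biological coefficient of variation 1.12). The scripts were tested on simulated data. For edgeR a pass was required only for large folds at a spread well below that of these libraries. That pass does not show how many true changes would be called here. DESeq2 1.42.0, limma 3.58.1 and other scalings, filters, pseudocounts and left-out libraries were alternatives. Python 3.11.15 and R 4.3.3 were used. The implied length is the median over libraries with at least 20 counts.

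Members and lists were chosen with earlier results of these data known. Named clusters are, in each direction, the member of highest mean CPM and then of largest difference. Groups came from the titles. No sequences are printed, as none were paired with these identifiers.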

Additional observations from a re-analysis of the deposited data

How the results depend on the processing

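Member counts depended on where the rule was set. A mean of at least 10 CPM gave 19 higher and 16 lower clusters, and at least 1 CPM gave 108 and 46. A difference of at least 2 left 15 lower clusters, and no minimum difference gave 48 and 45. With each library left out there were 28 to 96 higher and 29 to 106 lower clusters. The counts grew most without a library at 5 mg/L (96 and 106 without replicate 1, 85 and 73 without replicate 2, 91 and 83 without replicate 3), when only 2 libraries had to stand apart, and 49 lower clusters were found without replicate 1 at 10 mg/L. Of the members, 25 of 31 higher and 19 of 25 lower were kept under each of the 4 scalings (TMM, DESeq2 size factors, thinning and FPKM), and 12 and 14 with each of the 12 libraries left out. TMM and DESeq2 size factors shifted the level at 5 mg/L by -0.03 and -0.05 (log2). Of the 4 clusters named by the rule, all were kept under every scaling and only Cluster-27942.61513 with each library left out. The other 3 left the rule when 1 library was left out (Cluster-27942.68097 without replicate 1 at 10 mg/L, Cluster-27942.79942 without replicate 1 and Cluster-27942.60256 without replicate 2 at 2 mg/L), since another group then stood apart too. All 3 were still set apart at 5 mg/L. At a pseudocount of 0.1 the difference of Cluster-27942.79942 was 9.78 and that of Cluster-27942.60256 -8.36, and on FPKM the difference of Cluster-27942.60256 was -8.24.

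Members called were 0 at 2 mg/L and at 10 mg/L against the controls and at 10 against 2 mg/L, 0 at 5 mg/L against the controls and against 2 mg/L, and 1 against 10 mg/L. DESeq2 called 9, 3, 8, 32, 26 and 31 in these comparisons, and limma-voom called 1 in each of the last 3. With each library left out there were 0 to 2, 0 to 1 and 0 to 2 calls between the doses other than 5 mg/L. For 5 mg/L the calls numbered 0 to 4 against the controls, 0 to 1 against 2 mg/L and 0 to 5 against 10 mg/L. The 5 came without replicate 3 at 10 mg/L, where 199 clusters (0.288%) were called in all, against 6 with all libraries. The 4 came without replicate 1 at 2 mg/L, where 7 clusters (0.0102%) were called in all. A filter of at least 5 CPM in 3 libraries gave 1 at 5 mg/L against the controls, where 4 of 15447 clusters (0.0259%) were called in all. The 1 call against 10 mg/L, Cluster-27942.63967, became 0 with library size alone (adjusted p 0.0509), no filter (0.122), only the 6 libraries compared (0.359) and the replicate block (0.374). Over all clusters these settings called 0.00525%, 0.00243%, 0% and 0% in that comparison, so the loss is not particular to this member. With the replicate number as a block, 0 members were called in all 6 comparisons, but 0 of all 57151 clusters tested were called there too. The 18 correlations between same-numbered libraries of their deviations from the group means were -0.097 to 0.064, which does not show a pairing by number. At an unadjusted p under 0.05 and 10 mg/L against the controls, the block gave 0 higher members higher and 1 lower, against 3 and 1 without it. The cause of these changes was not tested.

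A count of 0 over the 3 libraries at 5 mg/L allows a level of up to 0.0488 CPM (3 counts, counting error only), so depth sets a bound on the members at 0 there. Without names or sequences the identity of members was not analysed here.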
